A study of Mus musculus with 2 samples.

Results

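The miR-26 family of mouse comprises miR-26a and miR-26b, and the deposited tables list it in 5 of 1886 entries: miR-26a-5p, miR-26a-1-3p, miR-26a-2-3p, miR-26b-5p and miR-26b-3p. Members were chosen by name alone, with both arms of each hairpin. Small RNA was sequenced from sperm of wild-type C57BL/6J mice aged 3 months that the labels and the study call naive, in 2 libraries described in the study's methods as independent biological replicates. There was 1 group, so no contrast between conditions could be made, and the description rests on the levels of the members, the order among them and the spread between the libraries. Neither the labels nor the methods say how many mice gave each library. The deposited tables carry a tag reading POSTTREAT, whose meaning is not given in the sources used here, and the mice are taken as naive from the labels and the study.

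A miR is cut from a hairpin precursor, and its 5p and 3p arms can each be loaded into an Argonaute protein. The loaded arm, called the guide, finds its targets chiefly by pairing through the seed, bases 2 to 8 from its 5′ end, whereas the other arm is mostly degraded. The miR-26 family is expressed in many tissues, represses the histone methyltransferase gene Ezh2, and is known for restraining cell proliferation. Its hairpins lie in introns of the genes for the CTDSP phosphatases, which are themselves known miR-26 targets.

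The mature sequences of all 5 entries were found in the RefSeq table for GRCm38.p6. They are shown because the seed sets the target range and because the few bases that differ between members decide how reads could be assigned. Capitals mark the seed.
miR-26a-5p: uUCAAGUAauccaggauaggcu
miR-26b-5p: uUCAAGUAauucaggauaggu
miR-26b-3p: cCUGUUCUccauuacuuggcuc
miR-26a-2-3p: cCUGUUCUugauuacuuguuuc
miR-26a-1-3p: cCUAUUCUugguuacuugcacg

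The 5p arms shared the seed UCAAGUA, which no other mature miR of the 1679 in the table carried. Compared position by position from the 5′ end without gaps, miR-26b-5p and miR-26a-5p matched at 19 of 21 positions, and the differences were U11C and U21C, with the base of miR-26b-5p given first. miR-26a-5p has 22 bases and miR-26b-5p has 21. The 3p arms of miR-26b and of the second miR-26a hairpin shared the seed CUGUUCU, and miR-26a-1-3p differed from miR-26a-2-3p within the seed by A4G, with the base of miR-26a-1-3p given first. The seed CUGUUCU was also that of miR-7039-3p and miR-6932-3p, neither of which had a read in either library. No stretch of 15 bases, the shortest read length the authors kept, was common to a member and any other mature miR in the table. A read of that length or longer that fits 1 of these mature sequences without a mismatch therefore fits no other one in the table. The study's later mapping steps allowed a mismatch, and the step that gave the counts is not given. Before position 21 the 5p arms differ only at position 11, so a shortened read with a mismatch there could fit both. Whether reads of miR-26a-5p were counted as miR-26b-5p in this way was not tested.

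miR-26a is encoded by 2 hairpins, and all 3 hairpins of the family are shown because the 5p arm is the same in both whereas the 3p arm tells them apart. Capitals mark the mature arms, and all positions are on the plus strand of GRCm38.
Mir26a-1: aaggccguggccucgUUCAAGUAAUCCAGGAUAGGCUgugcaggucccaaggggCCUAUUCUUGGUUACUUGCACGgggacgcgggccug
Mir26a-2: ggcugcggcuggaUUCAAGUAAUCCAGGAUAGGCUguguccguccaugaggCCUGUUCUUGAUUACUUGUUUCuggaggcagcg
Mir26b: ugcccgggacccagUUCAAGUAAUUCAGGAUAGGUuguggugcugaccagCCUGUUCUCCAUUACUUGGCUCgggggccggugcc

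The hairpin of Mir26a-1 lies at chr9:119031796-119031885, in intron 5 of 7 of Ctdspl (transcript ENSMUST00000073109.11 of the GENCODE annotation). That of Mir26a-2 lies at chr10:126995530-126995613, in intron 5 of 7 of Ctdsp2 (ENSMUST00000105256.9). That of Mir26b lies at chr1:74394310-74394394, in intron 4 of 6 of Ctdsp1 (ENSMUST00000027367.13). Each hairpin is on the strand of its host gene, and none overlaps an exon of a host transcript that spans it. The tables count miR-26a-5p once for both of its hairpins, so its reads cannot be divided between Ctdspl and Ctdsp2.

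Replicate 1 held 4049599 miR reads and replicate 2 held 5648067. Levels are given as CPM, the reads of an entry per 1000000 miR reads of the library, and a count of 3 reads, taken as the smallest level the depth can show, equals 0.741 CPM in replicate 1 and 0.531 CPM in replicate 2. All intervals are 95% intervals that cover counting error only, since reads without molecular identifiers are not independent molecules. A read of small RNA spans the whole mature miR, so levels of different miRs need no scaling by length. Entries of germ cell miRs fixed as markers had reads in each library in 13 of 25 cases, and they summed to 5587 CPM in replicate 1 and 2265 in replicate 2. miR-34c-5p led them, and 9 of the 25 entries, among them miR-449b and miR-741-3p, were at 0 in both libraries. miRs fixed as markers of other cells had reads too. The epithelial markers summed to 10812 and 8859 CPM (12 of 14 entries with reads in each library), those of smooth muscle and stroma to 41332 and 62579 CPM (8 of 9), and those of blood to 3327 and 7224 CPM (9 of 11). At 0 in both libraries were miR-429-5p of the epithelial list, miR-143-5p of the list for smooth muscle and stroma, and no entry of the blood list. The study's methods describe sperm taken from the epididymis and a hypotonic buffer used on the pellet against contaminating epithelial cells. miR-26 is expressed in many cell types. Whether such other cells were present, and their part in the level of miR-26, was not tested.

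The family was represented in sperm almost entirely by 1 of its entries, the 5p arm of miR-26a. In replicate 1, 24779 reads were counted on miR-26a-5p, a level of 6119 CPM with a Wilson interval of 6043 to 6195. In replicate 2, 30995 reads gave 5488 CPM, with an interval of 5427 to 5549. Its mean was 5803 ± 446 CPM (SD, n = 2 libraries), or 0.580% ± 0.0446 of the miR reads, and its rank was 11 among the 378 entries that had a read in each library. This arm has the same sequence in both miR-26a hairpins. The 2 highest entries, miR-10b-5p and miR-10a-5p, had mean levels of 547422 and 244351 CPM. Most of the reads by which each CPM value is divided were therefore theirs.

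miR-26b-5p, the 5p arm of the third hairpin, carries the same seed and was far lower in both libraries. Its 247 reads in replicate 1 gave 61.0 CPM, with an interval of 53.8 to 69.1. Its 402 reads in replicate 2 gave 71.2 CPM, with an interval of 64.5 to 78.5. The mean was 66.1 ± 7.20 CPM (SD, n = 2), at rank 96. Within a library the ratio of the 2 arms needs no scaling for depth. It is a ratio of reads, and how evenly the 2 sequences were captured was not measured. miR-26a-5p had 100.3 times the reads of miR-26b-5p in replicate 1 (exact interval 88.5 to 114) and 77.1 times in replicate 2 (69.9 to 85.3), a mean of 88.7 ± 16.4 (SD, n = 2). Both ratios lay far above 1, and they differed between the libraries by more than counting error.

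The 3p arms were rare, and nearly all of their reads came from miR-26b. miR-26b-3p was at 2.72 CPM in replicate 1, from 11 reads (interval 1.52 to 4.86), and at 4.78 CPM in replicate 2, from 27 reads (3.29 to 6.96). Its mean was 3.75 ± 1.46 CPM (SD, n = 2), at rank 226. miR-26a-2-3p was without a read in replicate 1 and at 0.354 CPM in replicate 2, from 2 reads (0.0971 to 1.29). miR-26a-1-3p had no read in either library, with Wilson upper bounds of 0.949 CPM in replicate 1 and 0.680 CPM in replicate 2. Both 3p arms of miR-26a thus had fewer than 3 reads in each library, and they cannot be ordered at this depth. The 3p reads therefore do not tell which of the 2 miR-26a hairpins gave the 5p reads.

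**Figure D1:**
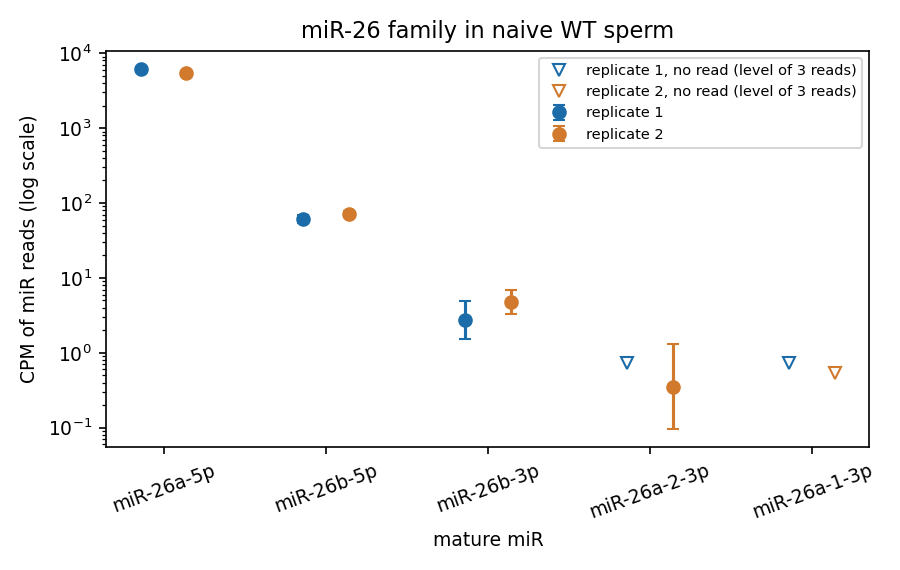
Level of each miR-26 entry in the 2 libraries of naive WT sperm, in CPM of miR reads on a log scale. Points are single libraries with Wilson 95% intervals, and open triangles stand at the level of 3 reads for entries without a read; miR-26a-5p sits near 6119 and 5488 CPM, miR-26b-5p near 61.0 and 71.2 CPM, and the 3p arms at 4.78 CPM or below.

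The order of the levels was the same in both libraries, with miR-26a-5p above miR-26b-5p and miR-26b-5p above miR-26b-3p, and the intervals of these neighbours did not overlap. miR-26b-3p also lay above the 3p arms of miR-26a, although its lower bound in replicate 1, 1.52 CPM, rests on 11 reads. Summed over all 5 entries, the family took 6183 CPM in replicate 1 and 5564 CPM in replicate 2, or 5873 ± 437 CPM (SD, n = 2). miR-26a-5p made up 99.0% of the family's reads in replicate 1 (98.8% to 99.1%) and 98.6% in replicate 2 (98.5% to 98.8%). miR-26b-5p made up 0.987% (0.871% to 1.12%) and 1.28% (1.16% to 1.41%).

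**Figure D2:**
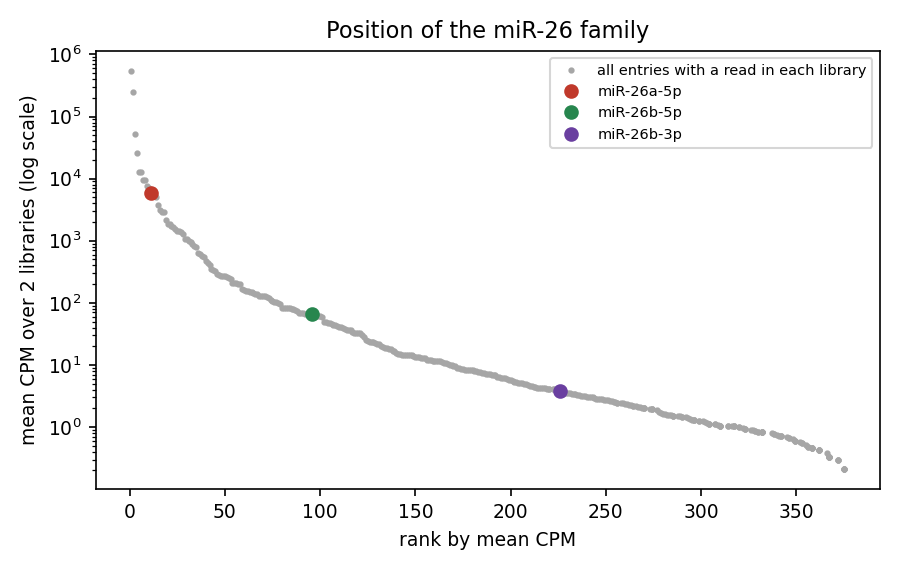
Mean CPM over the 2 libraries (log scale) against rank for the 378 entries with a read in each library, shown as grey points. Coloured points mark miR-26a-5p at rank 11, miR-26b-5p at rank 96 and miR-26b-3p at rank 226; both 3p entries of miR-26a lacked a read in at least 1 library and are not ranked.

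The share of reads on the 3p arms differed between miR-26a and miR-26b. For miR-26b the 3p arm took 4.26% of 258 reads in replicate 1 (Wilson interval 2.40% to 7.47%) and 6.29% of 429 reads in replicate 2 (4.36% to 9.002%). For miR-26a the 3p arms together took 0 of 24779 reads in replicate 1 (Wilson upper bound 0.0155%) and 2 of 30997 reads in replicate 2, or 0.00645% (0.00177% to 0.0235%). The intervals of miR-26a and miR-26b lay far apart in both libraries. Over the family as a whole the 5p arms held 99.9% of the reads in each library.

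This contrast can be set beside the other miRs. In 104 names with both arms listed and at least 100 reads in each library, the less abundant arm took a median of 0.214% of the reads in replicate 1 and 0.255% in replicate 2. The minor arm had no read at all in 32 of the 104 names in replicate 1, miR-26a among them, and in 31 names in replicate 2. These zeros, and with them the median, depend on depth. The filter admits names from 100 reads, where a 0 bounds the share only loosely, whereas miR-26a had 24779 reads in replicate 1. The share of miR-26b was above that of 83 names in replicate 1 and of 86 names in replicate 2. The 5p arm was the more abundant one in 59.6% of the names in each library, so in this respect both members were on the side of the majority. Both 5p arms begin with U and all 3 of the 3p arms begin with C. Of the 322 entries with a read in each library whose sequence was in the table, 46.6% began with U and 19.6% with C.

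**Figure D3:**
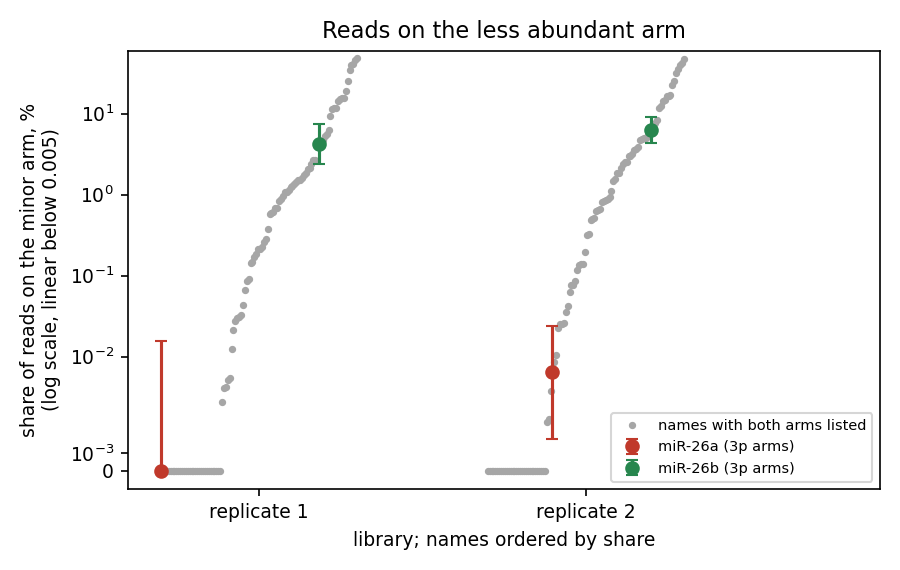
Share of reads on the less abundant arm, in percent (log scale, linear below 0.005), for 104 names in each library, ordered by share. miR-26a and miR-26b are coloured with Wilson 95% intervals; miR-26b lies at 4.26% and 6.29%, in the upper range of the names, and miR-26a at 0% and 0.00645%.

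miR-29, miR-30 and let-7 (with miR-98) are other families of widely expressed miRs that are encoded by several hairpins, and they are given for scale. The let-7 family, which is known for promoting differentiation, summed to 25501 CPM in replicate 1 and 19759 CPM in replicate 2, and the miR-30 family to 13014 and 11462 CPM. Both exceeded the miR-26 family in each library. The miR-29 family, which represses collagen and other matrix genes, summed to 346 and 286 CPM and was below it in each library. The families also differed in how the reads were spread over entries. The leading entry held 42.1% and 41.8% of the let-7 reads (let-7f-5p), 75.6% and 81.1% of the miR-30 reads (miR-30a-5p), and 86.3% and 86.9% of the miR-29 reads (miR-29a-3p). Each of these shares was below that of miR-26a-5p in the miR-26 family, by more than the libraries differed. Of the listed entries, 3 of 5 had a read in each library for miR-26, 18 of 22 for let-7, 11 of 11 for miR-30 and 4 of 7 for miR-29. These are values of 4 families in the same 2 libraries, and no test was made between families. Each comparison family lists more entries than miR-26, and other families were not compared. A leading share this high is therefore not shown to be particular to miR-26.

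**Figure D4:**
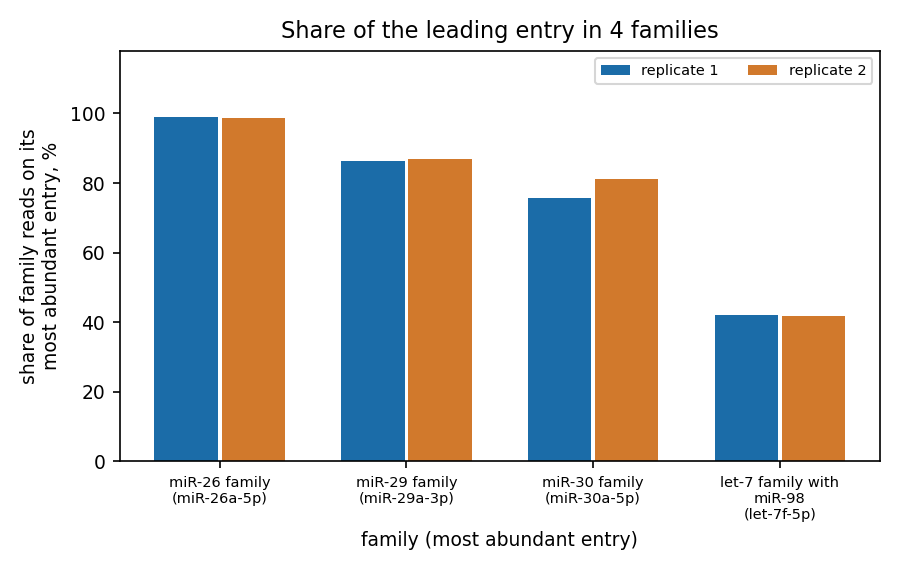
Share of each family's reads held by its most abundant entry, in percent, as 1 bar for each of the 2 libraries, with the entry named under the family. miR-26a-5p holds 99.0% and 98.6% of the miR-26 reads, more than the leading entries of the miR-29, miR-30 and let-7 families hold of theirs.

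The entries whose levels were nearest to those of the 5p arms were found among 243 other entries with at least 10 reads in each library, where the distance was the larger of the 2 absolute log2 differences in CPM, 1 for each library. Nearest to miR-26a-5p was let-7c-5p, with 6409 and 4922 CPM and a distance of 0.16. It was followed by miR-99b-5p (distance 0.39), miR-141-3p of the epithelial miR-200 family (0.45) and miR-22-3p (0.65). miR-26a-5p and let-7c-5p are neighbours in rank, and let-7c-5p was higher in replicate 1 and lower in replicate 2, so they did not differ beyond their spread. Nearest to miR-26b-5p were miR-210-3p, which is induced by hypoxia, with 60.01 and 72.2 CPM and a distance of 0.02, miR-221-3p (0.05), miR-497a-5p (0.17) and miR-23b-3p (0.25). Likeness here covers 2 libraries of 1 condition and describes similar abundance only.

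In CPM, both 5p arms differed less between the libraries than the median entry, whose absolute log2 ratio was 0.52. Of 318 entries with a read in each library and at least 10 reads in both together, 30.8% differed by more than 2-fold between the libraries in CPM, and none of the 3 miR-26 entries among them did. The log2 ratio of replicate 2 to replicate 1 was -0.16 for miR-26a-5p (exact counting interval -0.18 to -0.13), 0.22 for miR-26b-5p (-0.01 to 0.46) and 0.82 for miR-26b-3p (-0.24 to 1.98). Absolute log2 ratios were smaller than that of miR-26a-5p in 15.7% of the 318 entries and smaller than that of miR-26b-5p in 23.3%. Under TMM these shares were 25.2% and 53.1%, and with DESeq2 size factors 23.6% and 53.1%, so that miR-26b-5p then differed about as much as the median entry.

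The sign of the difference depended on the scaling for miR-26a-5p, while miR-26b-5p and miR-26b-3p were higher in replicate 2 under CPM, TMM and DESeq2 size factors. The median log2 ratio of the 318 entries was -0.28 in CPM, and TMM moved it by 0.35 and DESeq2 size factors by 0.34. With this shift the log2 ratio of miR-26a-5p turned to 0.19 under TMM and DESeq2 alike, that of miR-26b-5p rose to 0.57 under both, and that of miR-26b-3p rose to 1.17 and 1.16, past 2-fold. Relative to the median entry, which no scaling changes, miR-26a-5p was higher in replicate 2 by 0.12, miR-26b-5p by 0.50 and miR-26b-3p by 1.097 log2 units. Of the entries past 2-fold, 29 were higher in replicate 2 in CPM (9.12% of the entries) and 69 lower (21.7%), against 38 and 42 under either scaling. Over the same libraries and in CPM, the marker sums of germ cells differed by a log2 ratio of -1.30 and of epithelium by -0.29. Those of smooth muscle and stroma differed by 0.60 and of blood by 1.12. The epithelial sum thus lay near the median entry, at -0.28. TMM would add 0.35, and DESeq2 size factors 0.34, to each of these ratios and to those of the marker entries below. Single entries carried most of these sums: miR-143-3p made up 98.8% and 98.9% of the sum for smooth muscle and stroma, and the joined entry of miR-486a-5p and miR-486b-5p 93.3% and 95.4% of that for blood. In the blood list, miR-451a (log2 ratio 1.01), miR-144-3p (1.74), miR-144-5p (1.39) and miR-486a-3p (1.84) rose with the sum. There miR-223-3p was at -0.70, and miR-150-5p (0.07), miR-142a-3p (0.08) and miR-142a-5p (0.24) changed little in CPM. For smooth muscle and stroma, the other entries with a read in each library rose too, among them miR-145a-5p (0.81) and miR-199a-5p (0.35). In the epithelial list miR-205-5p was at 0.99, while most entries were lower in replicate 2 in CPM. These entries were named after their values were seen. The part of the marker entries in the differences of the miR-26 entries was not tested.

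**Figure D5:**
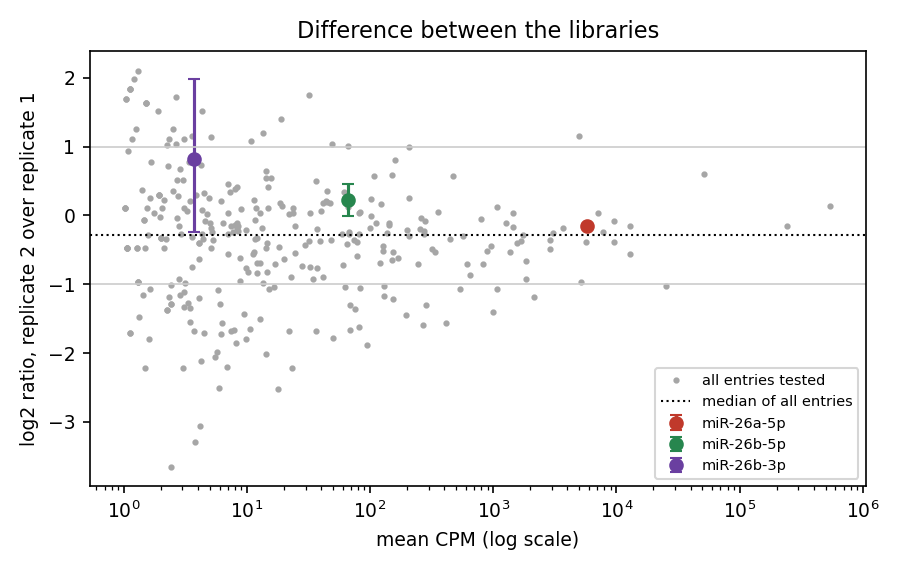
Log2 ratio of replicate 2 to replicate 1 in CPM against mean CPM (log scale) for 318 entries, with the dotted line at their median of -0.28 and grey lines at 2-fold. The miR-26 entries are coloured with exact 95% counting intervals; miR-26a-5p at -0.16 and miR-26b-5p at 0.22 lie close to 0, and miR-26b-3p at 0.82 has a wide interval.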

How the data were processed

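Small RNA of sperm from 2 biological replicates of naive WT mice was sequenced by the authors from Illumina TruSeq libraries. Reads were trimmed by quality, freed of 3′ adapters and filtered at a minimum of 15 bases with cutadapt (version 1.8.1 in the submitters' processing notes), then mapped with Bowtie 1.1.2, first without mismatches to miR and piRNA sequences. The later mapping steps, to other small RNA and to the mouse genome, allowed a mismatch. The notes also name HTSeq and the builds mm10 and GRCm38. The annotation release and the step that gave the counts are not given in the sources used here. Mapping without mismatches leaves out reads with errors or added bases, which can lower a miR whose ends are often modified.

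The deposited values are raw read counts for each of 1886 entries, 12 of which join several names. The 5 summary entries that close each table were left out of totals. Reads assigned to no miR made up 38.1% and 26.3% of these reads and the miR reads together. The other summary entries were not counted here.

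CPM, Wilson and exact intervals were computed with Python 3.11.15 and scipy 1.17.1. TMM (edgeR 4.0.16) and DESeq2 1.42.0 size factors served as alternative scalings in R 4.3.3, with no test. The computations were tested on simulated data. Sequences came from RefSeq (GRCm38.p6; 1608 of 1886 entries matched) and positions also from GENCODE M21. Named were all family entries, the 4 entries nearest to each 5p arm, and the leading entries of 3 comparison families fixed by name. Entries of the marker lists were named where they led a list or were at 0. Further entries of the lists were named for their difference between the libraries, after their values were seen. The members and lists were chosen with earlier results of these data known.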

Additional observations from a re-analysis of the deposited data

How the results depend on the processing

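The levels depend on what they are divided by. With the reads assigned to no miR added to the denominator, the mean of miR-26a-5p fell from 5803 to 3914 CPM. That of miR-26b-5p fell from 66.1 to 45.1 CPM and the family sum from 5873 to 3962 CPM. Without miR-10a-5p and miR-10b-5p in the denominator they were 27874, 319.8 and 28213 CPM. TMM and DESeq2 scaling moved these means by less than the SD between the libraries. Both scalings lower the levels of replicate 1 and raise those of replicate 2. The mean over the 2 libraries can therefore hardly move, and its small change shows no stability.

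The log2 ratio of replicate 2 to replicate 1 for miR-26a-5p, -0.16, changed sign to 0.19 under TMM, to 0.19 with DESeq2 size factors and to 0.0071 without miR-10a-5p and miR-10b-5p in the denominator. That of miR-26b-5p rose from 0.22 to 0.57 under TMM and to 0.57 with DESeq2 size factors. A pseudocount of 1 CPM changed neither sign. The same scalings for miR-26b-3p were chosen after seeing the data. The share of entries past 2-fold between the libraries was 30.8%, and the other filters and scalings gave 21.2% to 34.7%.

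The 5p share was 99.9% for the family, 99.997% for miR-26a alone and 94.7% for miR-26b alone. Leaving out 1 library gave ranks of 12 to 13 for miR-26a-5p and 84 to 99 for miR-26b-5p, and ratios of miR-26a-5p to miR-26b-5p of 77.1 to 100.3. With all arms counted this ratio was 84.1. A log2 ratio between libraries has no value when 1 of them is left out. With 2 libraries, a single library always lies within 1 SD of the mean of a level or ratio, so the range of the ratio shows no stability. The ranks do not follow this rule. By mean CPM they were 11 and 96, and neither library alone gave either of these ranks. The sets ranked differ. Ranks by mean CPM are among 378 entries, and those of replicates 1 and 2 are among the 484 and 442 entries with a read there. No paired analysis was possible because there is 1 group. Depth limits the order of the 3p arms of miR-26a, which had at most 2 reads in a library.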
